A study of Mus musculus with 16 samples.

Results

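The integrated stress response is the pathway by which cells lower general protein synthesis under stress while raising a set of protective mRNAs. The kinases PERK, PKR, GCN2 and HRI phosphorylate the translation factor eIF2, and ATF4, whose mRNA is translated better when eIF2 is phosphorylated, then induces genes for amino acid supply, redox balance and cell death. The endoplasmic reticulum (ER) arm of the same stress also works through IRE1, which splices the Xbp1 mRNA, and through ATF6. In brain inflammation this response has been studied mostly in oligodendrocytes, and GDF15, a secreted relative of TGF-beta, is one of its blood-borne outputs. Counts per gene, as used here, do not read the translation of ATF4 or the splicing of Xbp1.

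Described here are 10 genes of this response, of 21878 mRNAs in the tables, which were found by their symbols in the tables of counts and FPKM. They are the transcription factors Atf4, Atf3, Ddit3 (CHOP) and Xbp1, the ER chaperone Hspa5 (BiP), the secreted factor Gdf15, and the ATF4 or CHOP targets Chac1, Trib3, Asns and Sesn2. All 10 had the total of at least 16 counts that the test required.

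RNA was sequenced from cells described as brain microglia, sorted as CD11b+/CD45int, of 16 female WT C57BL/6 mice that were 8 weeks old. The 8 mice of the EAE group, for experimental autoimmune encephalomyelitis, received a MOG peptide in complete Freund's adjuvant and pertussis toxin, and their brains were taken at peak disease. The 8 mice of the PBS group received PBS injections on the same schedule, so adjuvant and pertussis toxin differ between the groups together with the peptide. Each mouse gave 1 stranded total RNA library. Protocols give the peptide as residues 35 to 55, but in the treatment field of the labels the last residue runs from 55 in EAE 1 to 62 in EAE 8.

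Total counts were 24587443 to 30244215 in the EAE libraries and 26031889 to 34184576 in the PBS libraries. Markers of the labelled cell type were all detected, with a summed FPKM over 17 microglia markers of 240 to 388 in EAE and 222 to 362 in PBS. However, the lists of neuron, astrocyte and oligodendrocyte markers each summed to more than the microglia list in all 16 libraries. Neuron markers reached 1036 to 1217 FPKM in EAE and 1179 to 1296 FPKM in PBS. By these sums the libraries did not read as microglia alone, so the values below cannot be assigned to microglia. The 12 neutrophil markers summed to 49.9 to 97.4 FPKM in EAE and 21.2 to 53.6 FPKM in PBS, and 4 of them were called higher. The libraries did not all stand alike: the library nearest to EAE 4 was PBS 4, the nearest to EAE 5 was PBS 6, and EAE 6, 7 and 8 and PBS 5, 7 and 8 stood closer to the others of their group than any other pair of libraries did. In bulk RNA, fewer cells of a type and less RNA per cell cannot be told apart.

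The promoters of these genes were read from RefSeq windows on GRCm38.p6 that run from 250 bases before to 50 bases after each transcription start. They are shown because the known sites of ATF4 and of the ER stress response lie in promoters of this kind. An ATF4 composite element, TGATGNAAN on either strand, was found in 4 of the 10 members and in 3.95% of 32851 promoters. In the following sequences, written on the strand of the gene, the capitals mark this element.
Asns, chr6:7693210-7693257, minus strand: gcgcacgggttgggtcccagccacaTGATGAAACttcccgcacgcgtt
Chac1, chr2:119351023-119351081, plus strand: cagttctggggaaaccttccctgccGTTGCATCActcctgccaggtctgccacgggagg
Atf3, chr1:191183411-191183469, minus strand: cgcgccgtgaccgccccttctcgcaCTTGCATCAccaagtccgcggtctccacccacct
Trib3, chr2:152344030-152344056, minus strand: tagctcaggTTTACATCAgccgggcgg

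Counting the start as 1 and the base before it as -1, the element began at -23 in Asns, at -194 in Chac1, at -111 in Atf3 and at 14 in Trib3. The ER stress element, which ATF6 binds together with NF-Y, was searched as CCAAT, then any 9 bases, then CCACG. It was found in 0.119% of all promoters, in Hspa5 alone among the members, and in 8 of the 25 genes with a window among 30 ER stress sensors and XBP1 or ATF6 targets. The capitals mark it below in Hspa5 and in the genes for the ER lectin chaperones calnexin (Canx) and calreticulin (Calr).
Hspa5, chr2:34772000-34772068, plus strand: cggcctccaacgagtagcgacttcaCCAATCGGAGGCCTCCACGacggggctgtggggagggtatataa
Canx, chr11:50325775-50325843, minus strand: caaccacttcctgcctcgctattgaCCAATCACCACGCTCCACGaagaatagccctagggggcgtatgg
Calr, chr8:84847050-84847118, minus strand: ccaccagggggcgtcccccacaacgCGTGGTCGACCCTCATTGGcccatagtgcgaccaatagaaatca

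Neither element was matched in the windows of Gdf15, Atf4, Ddit3, Xbp1 or Sesn2. The cAMP response element TGACGTCA, held by 1.79% of promoters, and the XBP1 element TGACGTGG, held by 0.676%, were matched in no member. These matches are of letters in a window and do not show that a factor was bound.

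EAE was compared with PBS with edgeR's quasi-likelihood test, and an mRNA was called at a Benjamini-Hochberg adjusted p under 0.05 over 17885 mRNAs. Of these, 433 (2.42%) were called, 118 higher and 315 lower in EAE. Scaled by library totals alone, the calls were 226 higher and 103 lower. None of the 10 members was called, and so none met the study's DEmRNA criterion, which adds an absolute log2 fold change over 1 and took in 0.117% of mRNAs. An unadjusted p under 0.05 was found for 3 members, namely Gdf15 and Chac1, higher in EAE, and Xbp1, lower, against 17.4% of all mRNAs. By edgeR's exact test, which called 4.17% of mRNAs, 1 member, Gdf15, was called and then met the DEmRNA criterion. In an exact two-sided permutation test on FPKM, 2 members, Gdf15 and Chac1, had an unadjusted p under 0.05, against 18.4% of all mRNAs, and no mRNA passed after adjustment. The EAE and PBS values overlapped for every member, as they did for all but 0.263% of the tested mRNAs.

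**Figure D1:**
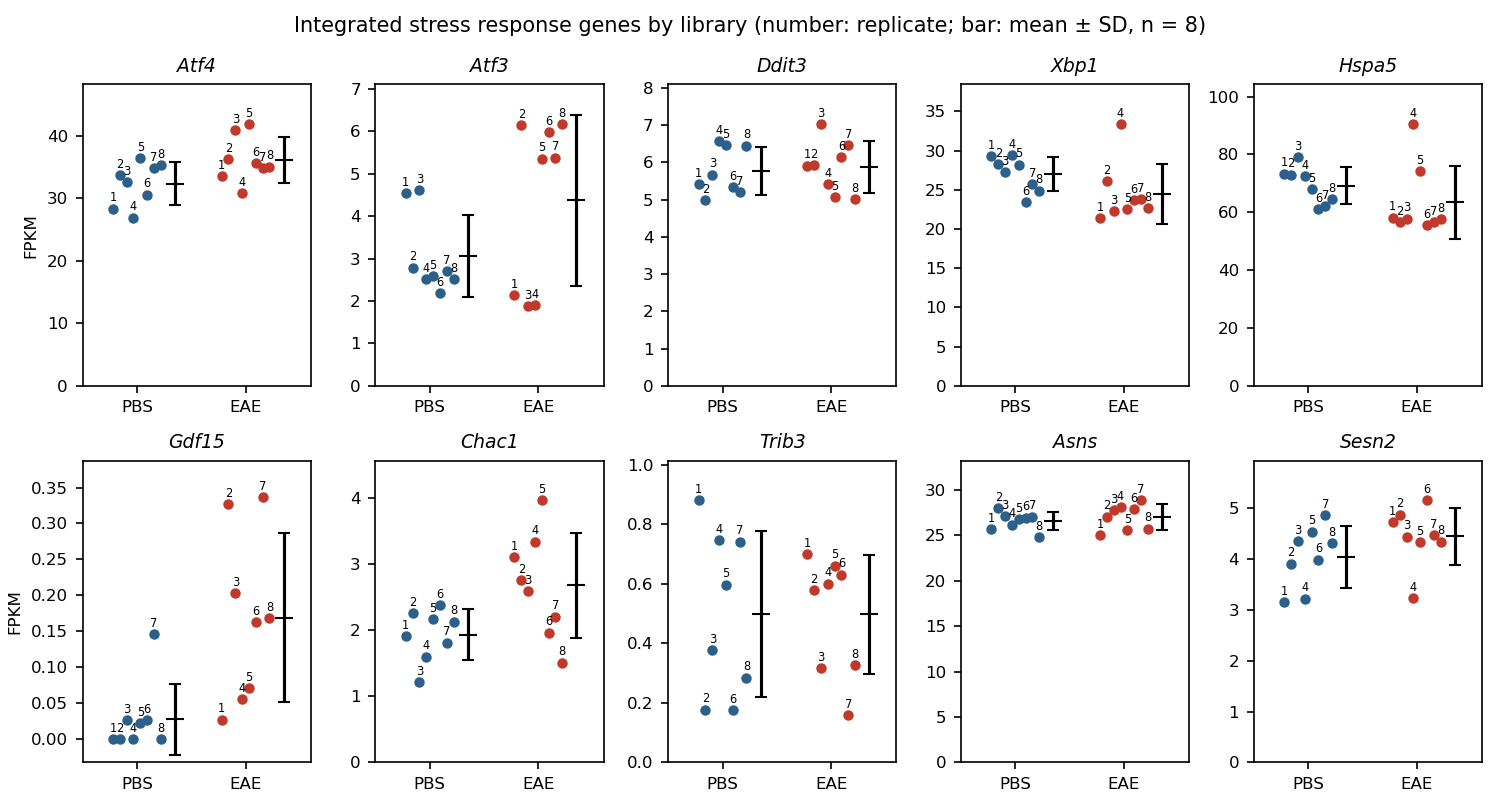
FPKM of the 10 genes in each library (points, numbered by replicate), with the mean and SD of each group of 8 as bars. The groups overlap in every panel, Atf3 splits the EAE libraries into 5 above and 3 below all PBS libraries, and EAE 4 is the highest library for Hspa5 and Xbp1.

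Gdf15 had the largest fold difference of the members and by far the fewest reads. The EAE libraries 1 to 8 held 1, 12, 7, 2, 3, 6, 13 and 6 Gdf15 reads, and the PBS libraries 1 to 8 held 0, 0, 1, 0, 1, 1, 7 and 0. All 8 EAE libraries lay above the PBS median and 5 lay above the highest PBS library, PBS 7, which alone gave 7 of the 10 PBS reads. In FPKM the level was 0.169 ± 0.118 in EAE and 0.0274 ± 0.0493 in PBS (SD, n = 8 each). The log2 fold change was 2.37 ± 0.74 (SE), with a 95% confidence interval of 0.85 to 3.90 and an adjusted p of 0.0885 by edgeR's quasi-likelihood test, so Gdf15 was not called. The exact permutation test on FPKM gave an unadjusted p of 0.00622 and an adjusted p of 0.125.

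The Gdf15 call turned on single libraries and on the tool. Without PBS 7 the log2 fold change was 3.62 ± 0.77 (SE) with an edgeR adjusted p of 0.0271, against 3 reads in the other 7 PBS libraries together. Without EAE 4 the log2 fold change was 2.51 and the edgeR adjusted p 0.0434. In the other 14 fits that each left out 1 library, Gdf15 was not called, and the highest adjusted p was 0.172. edgeR's exact test gave an adjusted p of 0.0280. Beside Gdf15, 4 of 12 neutrophil markers were called higher, against 118 of 17885 mRNAs, with the sums given above. By library, the neutrophil sum was 97.4 FPKM in EAE 1 with 1 Gdf15 read and 94.7 FPKM in EAE 7 with 13 reads. It was 50.8 FPKM in EAE 2 with 12 reads and 49.9 FPKM in EAE 4 with 2 reads. In EAE 3, 5, 6 and 8 it was 78.5, 59.1, 95.7 and 91.8 FPKM, with 7, 3, 6 and 6 reads. In PBS the neutrophil sum was highest in PBS 7, at 53.6 FPKM with 7 reads. It was 53.3 FPKM in PBS 8 and 21.2 FPKM, the lowest, in PBS 4, each with 0 reads. The 10 monocyte and macrophage markers summed to 8.18 to 12.8 FPKM in EAE and 4.65 to 9.76 FPKM in PBS, ranges that overlapped, and none of them was called. The CD11b+/CD45int gate is meant to leave out both of these cell types, but by the marker sums above the libraries were not microglia alone. The part of neutrophils, monocytes and macrophages in the Gdf15 difference was not tested.

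The GDF15 receptor complex joins GFRAL, which is largely restricted to the hindbrain, to the tyrosine kinase RET. Of 14 tested genes of this receptor and of the TGF-beta family, 1 was called, Ret, which fell, against 2.42% of all mRNAs called and 1.76% called lower. A single gene of 14 does not set this list apart. Ret measured 2.52 to 3.27 FPKM in EAE with a median of 2.85, and 2.95 to 3.66 FPKM in PBS with a median of 3.49. Most EAE libraries, 6 of 8, lay below the lowest PBS library. The log2 fold change was -0.28 ± 0.07 (SE) with an edgeR adjusted p of 0.0318, which held in 6 of 16 fits without 1 library and became 0.0738 with library totals alone. Inhba, which encodes the activin A subunit, measured 7.82 ± 1.44 FPKM in EAE and 6.17 ± 0.84 FPKM in PBS (SD, n = 8 each), with an edgeR adjusted p of 0.142, and Tgfb2 had an adjusted p of 0.152.

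The mRNAs whose log2 CPM over the 16 libraries was most like that of Gdf15, among 14759 with a mean CPM of at least 1, were Dysf with a Pearson r of 0.83, Pstpip2 with 0.82, and Sp140, Tnc and Elk3 with 0.81 each. These values are a description over libraries that include both groups. By edgeR, Tnc was called higher in EAE, with a log2 fold change of 0.49 and an adjusted p of 0.00740, as was Elk3 with 0.29 and 0.0380.

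The transcription factors at the head of the response were not called. Atf4 mRNA was among the higher of the 10 in level, at 30.8, 35.3 and 41.9 FPKM (lowest, median and highest) in EAE and 26.9, 33.1 and 36.4 FPKM in PBS. The EAE libraries lay above the PBS median in 7 of 8 cases, and only EAE 4 lay below it. Atf4 had a log2 fold change of 0.11 ± 0.07 (SE), a 95% confidence interval of -0.04 to 0.25 and an edgeR adjusted p of 0.456. Ddit3, which encodes the pro-apoptotic factor CHOP, measured 5.87 ± 0.69 FPKM in EAE and 5.76 ± 0.64 FPKM in PBS (SD, n = 8 each). The log2 fold change of Ddit3 was -0.02 with a 95% confidence interval of -0.20 to 0.15, and its sign turned with library totals alone.

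Atf3, a stress-inducible repressor and activator of the same bZIP class, divided the EAE libraries. Atf3 measured 2.14, 6.14, 1.87, 1.91, 5.35, 5.98, 5.37 and 6.17 FPKM in EAE 1 to 8. In PBS 1 to 8 it measured 4.55, 2.79, 4.61, 2.52, 2.58, 2.18, 2.71 and 2.51 FPKM. So EAE 2, 5, 6, 7 and 8 lay above every PBS library and EAE 1, 3 and 4 lay below every PBS library. Across all 16 libraries the log2 fold change was 0.47 ± 0.26 (SE) with an edgeR adjusted p of 0.360.

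EAE libraries low in Atf3 were also low in the sum of immediate early genes, the transcripts that rise first after cell stimulation. The 15 listed genes summed to 154 FPKM in EAE 1 and to 158 FPKM in each of EAE 3 and EAE 4, near the lowest PBS library at 155 FPKM. In the 5 EAE libraries with high Atf3 the sum was 193 to 246 FPKM. Among PBS libraries the sum was highest in PBS 3, at 254 FPKM, and in PBS 1, at 225 FPKM, which were also the highest for Atf3. In PBS 2, 5, 7 and 8 the sum was 192 to 214 FPKM, near the 193 FPKM of EAE 2. Atf3 was nevertheless 2.51 to 2.79 FPKM in these 4 PBS libraries, against 6.14 FPKM in EAE 2. No immediate early gene was called between the groups, against 2.42% of all mRNAs. Of the 15, 10 had a negative log2 fold change, or 7 with library totals alone, against 47.3% and 34.6% of all mRNAs. The smallest p values gave edgeR adjusted p of 0.190 for Klf2, 0.326 for Jund and 0.542 for Btg2. The part of these genes in the Atf3 values was not tested.

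The 6 libraries most alike (EAE 6, 7 and 8 against PBS 5, 7 and 8) were picked after seeing the data, for the small spread within their groups. That choice itself lowers p-values, and edgeR called 24.1% of 17239 mRNAs there, so their values are given as a description. Atf3 had a log2 fold change of 1.14 in these 6 libraries and of 0.0026 in the other 10. Of 15 immediate early genes, 12 had a positive and 3 a negative log2 fold change in the 6 libraries, with a median of 0.22. In the other 10 libraries 1 was positive and 14 were negative, with a median of -0.22. The difference in Atf3 between the sets, 1.13 ± 0.47 (SE) as an interaction term in edgeR, had an unadjusted p of 0.0261 and an adjusted p of 0.563 and was not called.

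**Figure D2:**
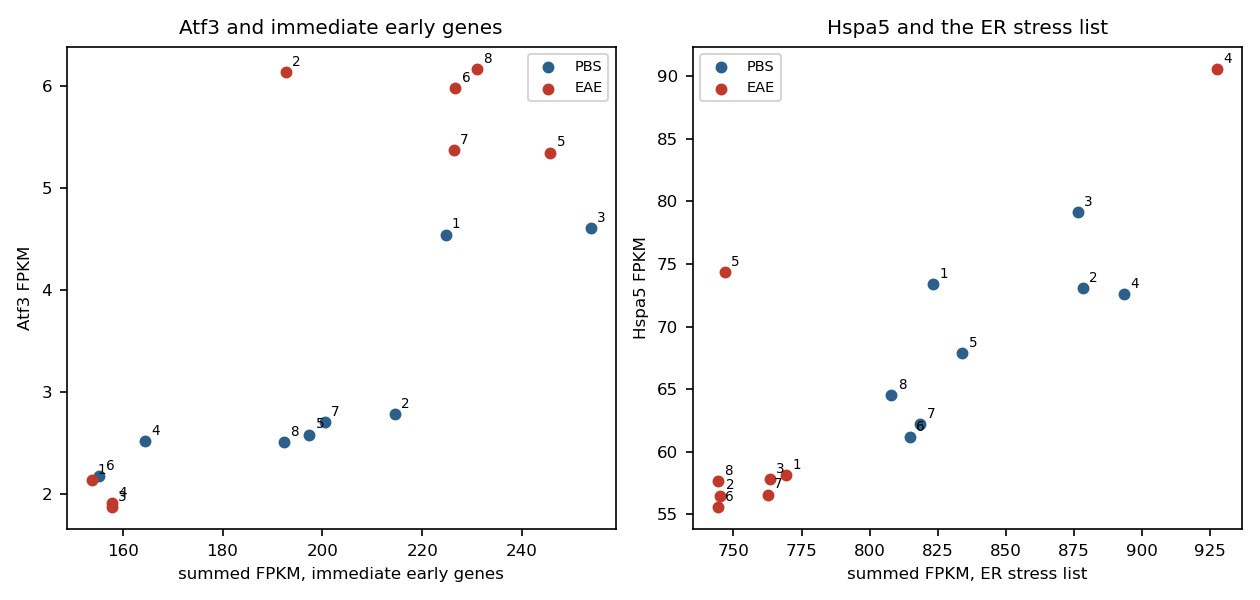
Left, FPKM of Atf3 against the summed FPKM of 15 immediate early genes; right, FPKM of Hspa5 against the summed FPKM of 30 ER stress genes that leave out Hspa5 and Xbp1. Points are libraries, numbered by replicate. EAE 1, 3 and 4 lie at the lower left of the Atf3 panel, and in the Hspa5 panel 7 EAE libraries lie left of all PBS libraries while EAE 4 lies right of them.

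Among the ATF4 and CHOP targets, Chac1, a glutathione-degrading enzyme, was the member with the next largest difference after Gdf15 and Atf3. Chac1 measured 3.10, 2.76, 2.59, 3.34, 3.96, 1.96, 2.20 and 1.51 FPKM in EAE 1 to 8. PBS libraries ranged from 1.22 to 2.38 FPKM with a median of 2.02. EAE 1 to 5 lay above every PBS library, and EAE 6, 7 and 8 lay within the PBS range. The log2 fold change was 0.42 ± 0.18 (SE), with a 95% confidence interval of 0.05 to 0.79, an edgeR adjusted p of 0.219 and an unadjusted exact permutation p of 0.0297. Of the EAE libraries above every PBS library for Chac1, only EAE 2 and EAE 5 were also above every PBS library for Atf3.

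The other targets showed little difference. Asns, asparagine synthetase, gave the narrowest estimate, at 27.0 ± 1.4 FPKM in EAE and 26.6 ± 0.98 FPKM in PBS (SD, n = 8 each). Its log2 fold change was -0.03 with a 95% confidence interval of -0.12 to 0.07, and it was 0.023 with library totals alone. Trib3, a pseudokinase that restrains ATF4 and CHOP, was low and varied between libraries, at 0.160 to 0.700 FPKM in EAE and 0.175 to 0.880 FPKM in PBS. For Trib3 the log2 fold change was -0.05 with a 95% confidence interval of -0.78 to 0.69, and its sign turned with library totals alone. Sesn2, an inhibitor of mTORC1 signalling, measured 3.23 to 5.15 FPKM in EAE and 3.15 to 4.86 FPKM in PBS, with an edgeR adjusted p of 0.725. Of the members with an ATF4 element in the promoter window, Atf3 and Chac1 had positive log2 fold changes and Asns and Trib3 had values near 0.

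For the wider ATF4 programme, 0 calls in lists this short is near the 2.42% of all mRNAs called. Of 21 tested ATF4 targets for amino acid synthesis and transport, none was called, and 2 were higher and 5 lower at an unadjusted p under 0.05 in edgeR, against 7.92% and 9.52% of all mRNAs. The nearest to a call was Aldh1l2, a mitochondrial folate enzyme, at 3.49 ± 0.52 FPKM in EAE and 2.66 ± 0.38 FPKM in PBS (SD, n = 8 each), with a log2 fold change of 0.34 and an adjusted p of 0.0646 by edgeR's quasi-likelihood test. The aspartate aminotransferase Got1 had a log2 fold change of -0.19 with an adjusted p of 0.0757, and the glycine transporter Slc6a9 had -0.24 with 0.102. None of 13 cytosolic aminoacyl-tRNA synthetases was called, and the smallest p values gave edgeR adjusted p of 0.241 for Iars, 0.418 for Eprs and 0.429 for Gars, with log2 fold changes of 0.11, -0.06 and -0.08.

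Of 19 other ATF4 and CHOP targets tested, 2 were called and both fell, against 1.76% of all mRNAs called lower. Herpud1, which serves ER-associated degradation, measured 22.7 to 26.9 FPKM in EAE and 23.8 to 32.3 FPKM in PBS. Its log2 fold change was -0.27 ± 0.06 (SE) with an edgeR adjusted p of 0.0255, called in 9 of 16 fits without 1 library. Ddit4 (REDD1), an mTORC1 inhibitor, measured 20.9 to 34.5 FPKM in EAE and 27.6 to 36.5 FPKM in PBS, and 6 of 8 EAE libraries lay below the lowest PBS library. Its log2 fold change was -0.35 ± 0.09 (SE) with an edgeR adjusted p of 0.04999, just under the threshold and called in 3 of 16 fits without 1 library. With library totals alone neither was called, at adjusted p values of 0.0669 for Herpud1 and 0.0942 for Ddit4. Sqstm1, the autophagy receptor p62, had a log2 fold change of -0.22 with an edgeR adjusted p of 0.104.

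Upstream, none of 17 genes for eIF2 kinases, eIF2, eIF2B and eIF2 phosphatase was called, against 2.42% of all mRNAs. For this list and the short lists that follow, 0 calls is near that share. By edgeR, the smallest p values belonged to the kinases, with log2 fold changes of -0.16 for Eif2ak3 (PERK, adjusted p of 0.189), 0.23 for Eif2ak2 (PKR, 0.199) and 0.13 for Eif2ak4 (GCN2, 0.215). PKR mRNA measured 2.71 to 3.88 FPKM in EAE and 2.24 to 3.33 FPKM in PBS, with 5 EAE libraries above all PBS libraries. None of 7 other bZIP factors was called, and the smallest p values gave edgeR adjusted p of 0.247 for Nfe2l1, 0.318 for Cebpg and 0.572 for Nfe2l2. None of 14 p53 targets was called either, where p53 is the other well-known inducer of Gdf15, and the smallest p values gave edgeR adjusted p of 0.434 for Plk2, 0.477 for Ccng1 and 0.482 for Mdm2.

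**Figure D3:**
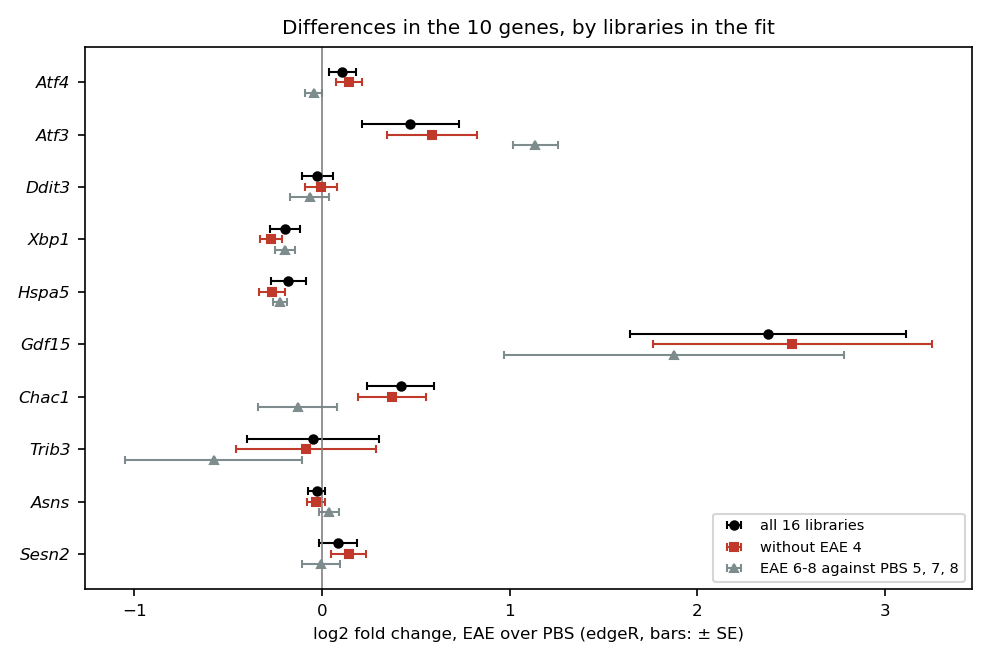
Log2 fold change of EAE over PBS for the 10 genes (edgeR quasi-likelihood, bars ± SE) in all 16 libraries, without EAE 4, and in the 6 libraries most alike. Hspa5 and Xbp1 lie below 0 and Gdf15 above 0 in all of these fits, and Atf3 is at 1.14 in the 6 libraries against 0.47 in all 16.

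In the ER arm most EAE libraries stood low, and EAE 4 stood high. Hspa5, the ER chaperone BiP and the most abundant member, measured 58.1, 56.5, 57.8, 90.6, 74.3, 55.6, 56.6 and 57.7 FPKM in EAE 1 to 8. PBS libraries measured 61.2 to 79.1 FPKM with a median of 70.2. So 6 of 8 EAE libraries lay below the lowest PBS library, EAE 5 lay within the PBS range and EAE 4 lay above the highest. The log2 fold change was -0.18 ± 0.09 (SE), with a 95% confidence interval of -0.37 to 0.01 and an edgeR adjusted p of 0.317.

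Xbp1, the transcription factor spliced by IRE1, measured 21.3, 26.1, 22.3, 33.4, 22.5, 23.7, 23.8 and 22.6 FPKM in EAE 1 to 8. PBS libraries measured 23.4 to 29.4 FPKM with a median of 27.7. EAE 4 was again above all PBS libraries, and the other 7 EAE libraries lay below the PBS median. The log2 fold change was -0.20 ± 0.08 (SE), with a 95% confidence interval of -0.36 to -0.03 and an edgeR adjusted p of 0.191.

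Without EAE 4, edgeR called 7.38% of 17853 mRNAs and 3 of the 10 members: Gdf15, given above, Hspa5 and Xbp1. Hspa5 fell by 0.27 on the log2 scale with an adjusted p of 0.0234, and Xbp1 fell by 0.27 with an adjusted p of 0.00845. In each of the other 15 fits that left out 1 library, neither Hspa5 nor Xbp1 was called. EAE 4 is also the EAE library whose nearest library was of the PBS group, beside EAE 5, and its summed neutrophil markers were the lowest of the EAE group at 49.9 FPKM, within the PBS range as were those of EAE 2 at 50.8 FPKM. Its summed monocyte and macrophage markers, at 12.8 FPKM, were the highest of all 16 libraries, as were its summed microglia markers, at 388 FPKM. The microglia sum was next highest in EAE 5 and PBS 4, at 362 FPKM each.

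Of the 30 ER stress sensors and XBP1 or ATF6 targets, 3 were called and all 3 fell, against 1.76% of all mRNAs called lower. The list had 23 negative and 7 positive log2 fold changes and a median of -0.11, against 0.0092 over all tested mRNAs. With library totals alone 19 were negative, and 1 was called, Sec24d, which was then higher. Over all mRNAs 47.3% were negative in the main fit and 34.6% with library totals alone. At an unadjusted p under 0.05 in edgeR, 11 were lower and 1 higher, against 9.52% and 7.92% of all mRNAs. Canx measured 75.1 to 99.6 FPKM in EAE with a median of 78.5, and 85.0 to 99.9 FPKM in PBS with a median of 94.1. Its log2 fold change was -0.24 ± 0.06 (SE) with an edgeR adjusted p of 0.0249, and it was called in 12 of 16 fits without 1 library.

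Pdia3, a disulfide isomerase that works with calnexin and calreticulin, measured 33.2 to 51.0 FPKM in EAE and 41.8 to 50.8 FPKM in PBS, with 7 of 8 EAE libraries below the lowest PBS library. Its log2 fold change was -0.28 ± 0.07 (SE) with an edgeR adjusted p of 0.0339, called in 7 of 16 fits without 1 library. Ssr3, a subunit of the translocon-associated complex, had a log2 fold change of -0.21 ± 0.05 (SE) and an edgeR adjusted p of 0.0359, called in 5 of 16 such fits. With library totals alone, the edgeR adjusted p was 0.0623 for Canx, 0.0729 for Pdia3 and 0.0980 for Ssr3. Calr had a log2 fold change of -0.26 and an adjusted p of 0.0507. Without EAE 4, 11 of the 30 were called lower and 1, Sec24d, higher, where 4.57% of all mRNAs were called lower.

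The sum over the 30 genes was added after the data were seen. It was 744 to 769 FPKM in the EAE libraries other than EAE 4 and 927 FPKM in EAE 4. In PBS it was 808 to 893 FPKM. Thus 7 EAE libraries lay below every PBS library and EAE 4 lay above every PBS library. The same held with Canx, Calr and Hsp90b1 left out of the sum, where EAE 4 stood at 545 FPKM and PBS at 483 to 524 FPKM. The summed neuron markers had a ratio of group means, EAE over PBS, of 0.923, with 2 of 12 called lower (Syt1 and Gad1). Within the EAE group the neuron sum was highest in EAE 4, at 1217 FPKM, and the astrocyte and oligodendrocyte sums were highest in EAE 5, at 1797 and 1318 FPKM, and next in EAE 4, at 1588 and 1152 FPKM. Their part in the ER result was not tested. Of the 9 genes with an ER stress element in the window, Hspa5 included, 7 had a negative log2 fold change and 1, Canx, was called. In the whole list of 30, 23 were negative and 3 were called, so the element does not set these genes apart. Over all mRNAs 47.3% were negative and 2.42% were called.

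**Figure D4:**
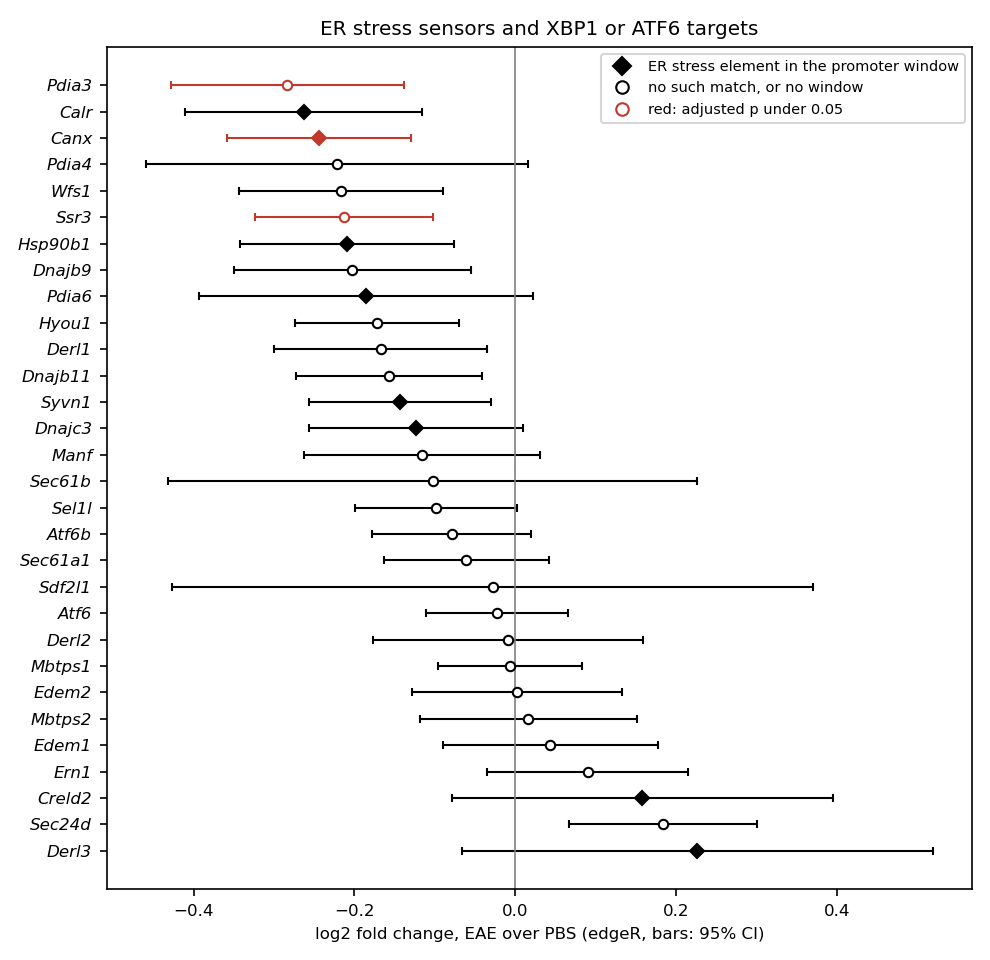
Log2 fold change of EAE over PBS with 95% confidence intervals (edgeR quasi-likelihood) for 30 ER stress sensors and XBP1 or ATF6 targets, with diamonds for genes that hold an ER stress element in the promoter window and red for an adjusted p under 0.05. There are 23 genes left of 0, and Canx, Pdia3 and Ssr3 are in red.

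In level per length, the order of group means was the same in EAE and PBS for the most abundant members: Hspa5, then Atf4, with Asns and Xbp1 next and changing places between the groups. Asns and Xbp1 lay at 27.0 and 24.5 FPKM in EAE and at 26.6 and 27.1 FPKM in PBS, differences smaller than the SD of Xbp1. Ddit3, at 5.87 FPKM in EAE, stood above Sesn2 and Atf3, at 4.44 and 4.37 FPKM, which were not separated beyond their SD. Chac1, Trib3 and Gdf15 followed in both groups, at 2.68, 0.497 and 0.169 FPKM in EAE.

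Within a group, the members did not move together beyond what 8 libraries can show. Of 90 correlations of log2 CPM (45 pairs in each group), none had an adjusted p under 0.05, and 4 had an unadjusted p under 0.05 by exact permutation of Pearson's r. The smallest p belonged to Sesn2 and Hspa5 in EAE, with r of -0.90 (exact permutation p = 0.00062, adjusted p = 0.0558) and Spearman's rho of -0.90 (exact permutation p = 0.00456, adjusted p = 0.411). Without the 2 libraries farthest from the median of Sesn2, r was -0.62. In PBS the same pair had r of -0.32.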

How the data were processed

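Raw counts and FPKM per mRNA were deposited for 16 libraries, 1 per mouse. Per the labels and methods, the authors filtered reads, aligned them to GRCm38 with HISAT2 2.1.0 and counted them with HTSeq 0.11.2. The strand setting of the counting is not given in the sources used here. The deposited FPKM equal the deposited counts over library total and a length per mRNA. Here, counts of mRNAs with a total of at least 16 were tested with edgeR 4.0.16 (R 4.3.3; TMM, quasi-likelihood, Benjamini-Hochberg). FPKM were tested by exact two-sided permutation over 12870 divisions of 8 against 8, with a smallest possible p of 0.000155. Alternatives used DESeq2 1.42.0, limma 3.58.1, edgeR's exact test, other scalings and filters, a replicate block and each library left out. Scripts were tested on simulated data. The 10 genes, the gene lists and the marker lists were chosen with earlier results of these data known. Named by rule from each list were its called genes and, up to 3, those with the smallest p. Calr, Hsp90b1 and Sec24d were named after their values were seen. The sums over the immediate early genes and over the ER stress list were also added after the data were seen. Adm2, Gdf1 and Gdf3 had too few counts to be tested. Intervals of level cover the spread between mice. Nothing in the labels ties replicate numbers to a shared litter or day, but the number of mRNAs with a count split by replicate number. It was 17565 to 17644 in EAE 1 to 4 and 17955 to 18042 in EAE 5 to 8. In PBS 1 to 4 it was 17405 to 17609, and in PBS 5 to 8 it was 17831 to 17922. The EAE libraries low in Atf3 and the libraries most alike each lay on a single side of this split. Beyond the replicate block no fit held a term for it, and its part in the results was not tested.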

Additional observations from a re-analysis of the deposited data

Results flagged for a closer look

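In each group of 8, the gap of the highest or lowest library to the next was set against Dixon's 95% critical value, for the 10 genes and the summed lists. Of 40 groups, 4 were past it, where chance flags about 1 in 20. Gdf15 in PBS 7 was the highest of PBS at 0.146 FPKM, against 0.0261 FPKM in the next. Xbp1 in EAE 4 was the highest of EAE at 33.4 FPKM, against 26.1 FPKM, and Sesn2 in EAE 4 was the lowest at 3.23 FPKM, against 4.33 FPKM. The summed ER stress list, a sum added after the data were seen, was highest of EAE in EAE 4, at 927 FPKM against 769 FPKM.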

How the results depend on the processing

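The count of members called was 0 in the fit reported and 1, Gdf15, with edgeR's exact test. It was 0 to 3 when 1 library was left out, where the 3 without EAE 4 were Gdf15, Hspa5 and Xbp1. Within the 6 libraries most alike it was 3, namely Atf3, Hspa5 and Xbp1, and Gdf15 was not called. The count of DEmRNAs among members was 0, and it was 1, Gdf15, with the exact test. It was 0 to 1, again Gdf15, when 1 library was left out, and 1, Atf3, within the 6 libraries. Of 148 pathway genes, 6 were called, against 2 with library totals alone, 13 with DESeq2, 11 with the exact test, 1 with limma at either pseudocount (0.1 or 1), 0 to 23 when 1 library was left out, and 15, 54 and 0 with a term for the 6 libraries most alike, within them and within the other 10 (the last 3 fits were chosen after seeing the data, the 6 libraries for their small spread, so their calls support nothing). Of the ER stress list, 3 were called, against 1 with library totals alone, 8 with DESeq2, 6 with the exact test, 1 with limma at either pseudocount, 6 with the replicate block, 0 to 12 when 1 library was left out, and 7, 9 and 0 in the fits by set. Over all mRNAs the call count was 433, against 329 with library totals alone, 910 with DESeq2, 745 with the exact test and 148 and 295 with limma. It was 144 to 1317 when 1 library was left out. In the fits by set it was 768, 4147 and 13, or 4.29%, 24.1% and 0.0745% of tested mRNAs, in the order above. The highest count when 1 library was left out was without EAE 4 for the members, the pathway genes, the ER stress list and all mRNAs. The pathway count of 0 was without EAE 2, EAE 8 or PBS 2, and these and EAE 6 also gave 0 for the ER stress list.

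The signs of Asns, Ddit3 and Trib3 turned under library totals alone (0.023, 0.026 and 0.0028), limma with a pseudocount of 0.1 (0.022, 0.025 and 0.066) and limma with 1 (0.021, 0.022 and 0.0098). Trib3 was also 0.033 with the replicate block and 0.23 within the other 10 libraries, and it ran from -0.18 to 0.11 when 1 library was left out. Ddit3 ran from -0.062 to 0.0067 when 1 library was left out. Within the 6 libraries, Asns was 0.039, Atf4 -0.044, Chac1 -0.13 and Sesn2 -0.0045. No other direction turned among the members or the 6 called pathway genes. Gdf15 had an adjusted p of NA in DESeq2 and was removed by edgeR's own filter on low counts, so these gave no value. At 1 to 13 reads in EAE libraries, depth limits what can be said of Gdf15.

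Replicate numbers did not pair the libraries: the correlation of deviations was over 0.1 in 3 of 8 pairs, and 2 of 8 EAE libraries correlated best with their own number. With the replicate block, edgeR gave Gdf15 an adjusted p of 0.0604 and no member was called, and 517 mRNAs were called against 433.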
